A study of Homo sapiens with 3 samples.

Results

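Hypoxia with oxamate was set against normoxia in Hep3B, an established human hepatoma line that the labels call a wild-type liver cancer cell. The comparison was fixed by the sample labels alone: 2 of the 3 libraries of the series enter it, the library of cells kept at 1% oxygen with sodium oxamate and the library of cells kept at 20% oxygen, over all 61533 genes listed. The design text gives 48 hours beside the oxamate treatment, and the oxamate dose is not given in the sources used here. All cells grew in DMEM with fetal bovine serum and antibiotics, and polyadenylated RNA was sequenced. The remaining library, from cells at 1% oxygen without oxamate, is printed beside the other values as "hypoxia alone". With a single library for each condition, differences lack any check by replicates and p-values are not given. No library of cells given oxamate at 20% oxygen was analysed here, so the parts of low oxygen and of oxamate in a joint difference cannot be told apart from the 2 libraries compared.

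In low oxygen the hypoxia-inducible factors (HIF) are no longer hydroxylated by the EGLN prolyl hydroxylases, escape degradation, and turn on genes of glucose uptake, glycolysis, blood vessel growth and mitophagy. Pyruvate is then steered away from mitochondria and turned into lactate by lactate dehydrogenase, and oxamate, an analogue of pyruvate, inhibits that enzyme. Liver cells also make most plasma proteins and lipoproteins, and Hep3B keeps much of that secretory programme.

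Gene levels are given in CPM, counts scaled to a fixed library total, after normalisation by trimmed mean of M values (TMM). Where 3 values follow a gene they stand for normoxia, hypoxia alone and hypoxia with oxamate, in that order. Levels of different genes are compared only in FPKM, the deposited values per kilobase of exon. Folds are ratios of CPM in hypoxia with oxamate to CPM in normoxia, and the range in parentheses is a 95% exact conditional binomial interval, limited to counting error. Genes are called higher or lower here if the fold reached 2 and the larger of both counts reached 50 fragments. Of the 61533 genes, 13597 had at least 50 fragments in either library and are called measured. Among them 2090, or 15.4%, were higher and 2080, or 15.3%, were lower, and the median log2 ratio was -0.11. Of the 11863 measured protein-coding genes the higher ones made up 12.2% and the lower ones 16.4%, and the median log2 ratio was -0.18. Counts of list members below are to be read against these shares. The lists were written with earlier results of these data known, so a count beyond a share is a description and not a test.

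The libraries held 24826365 to 27412147 fragments. The share of fragments from the mitochondrial chromosome was 8.46% in normoxia, 5.80% in hypoxia alone and 7.21% with oxamate. All 10 markers of the hepatocyte line were present in each library, and their summed level was 34179.8 CPM in normoxia, 22841 in hypoxia alone and 13915 with oxamate. Of 12 blood cell markers, 10 lay below 1 CPM in normoxia and 11 with oxamate, with sums of 44.001 and 62.7 CPM that were mostly LYZ. Their sum in hypoxia alone was 34.5 CPM, and of the 2 measured members 0 were higher and 1 lower. The summed level of 10 endothelial markers was 4.41 CPM in normoxia, 31.9 in hypoxia alone and 45.6 with oxamate. That sum was carried by PECAM1 (1.28, 8.31 and 19.9 CPM), ESAM (2.47, 22.8 and 22.2 CPM) and TIE1 (0.0387, 0.397 and 2.48 CPM), the 3 measured members and all higher, while VWF and CDH5 had 0, 1 and 3 fragments and 2, 0 and 0 fragments. The summed stellate cell and fibroblast markers stood at 31.8, 37.7 and 31.9 CPM, with 0 of 3 measured members higher and 1 lower. The cholangiocyte and other epithelial markers summed to 1336, 887 and 1043 CPM, with none of the 5 measured members past the 2-fold rule. The part of such cells in any difference was not tested. In bulk RNA, fewer cells of a type and less RNA per cell cannot be told apart.

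Start regions of 4 genes that HIF is known to act on are shown first, because these genes were among the higher ones and their regions hold the core of the HIF binding motif. Each line gives the 250 bases before a RefSeq transcription start (GRCh38.p14), 5′ to 3′ on the gene's strand, with ACGTG and its reverse complement CACGT in capitals. The palindrome CACGTG counts on both strands.
CA9, chr9:35673678-35673927, plus strand: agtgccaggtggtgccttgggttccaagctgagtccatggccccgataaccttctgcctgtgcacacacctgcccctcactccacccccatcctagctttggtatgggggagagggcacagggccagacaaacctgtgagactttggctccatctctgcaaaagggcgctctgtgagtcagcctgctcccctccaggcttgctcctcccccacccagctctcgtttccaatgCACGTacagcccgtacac
LDHA, chr11:18394313-18394562, plus strand: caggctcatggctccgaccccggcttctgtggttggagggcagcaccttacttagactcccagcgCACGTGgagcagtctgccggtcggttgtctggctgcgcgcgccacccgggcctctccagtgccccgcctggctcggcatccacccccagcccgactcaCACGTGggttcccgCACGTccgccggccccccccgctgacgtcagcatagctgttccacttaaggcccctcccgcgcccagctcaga
ENO2, chr12:6914330-6914579, plus strand: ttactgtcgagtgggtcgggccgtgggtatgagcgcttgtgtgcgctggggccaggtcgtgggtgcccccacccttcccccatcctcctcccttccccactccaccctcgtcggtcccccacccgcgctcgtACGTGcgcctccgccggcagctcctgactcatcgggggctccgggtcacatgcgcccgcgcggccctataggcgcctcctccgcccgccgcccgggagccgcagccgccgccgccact
PGK1, chrX:78103998-78104247, plus strand: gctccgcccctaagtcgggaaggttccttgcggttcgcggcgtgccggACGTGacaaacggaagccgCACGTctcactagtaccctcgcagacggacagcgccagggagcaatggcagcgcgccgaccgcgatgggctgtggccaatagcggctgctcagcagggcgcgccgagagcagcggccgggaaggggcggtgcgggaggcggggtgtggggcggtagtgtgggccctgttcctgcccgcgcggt
The nearest match began 18 bases before the start in CA9, 73 in LDHA, 118 in ENO2 and 183 in PGK1. In windows that also hold the 50 bases after the start, at least 1 match was present in 21.4% of all 35116 RefSeq start windows and in 25.4% of the 14237 windows of measured protein-coding genes. For the HIF and glycolysis lists described next, 29 of the 59 windows of higher members (37 genes) held a match. So did 7 of 29 windows of members that were neither higher nor lower (19 genes) and 2 of 4 of lower ones (3 genes). These lists were written with earlier results of these data known, so the shares are a description and not a test. A gene can have several windows, and a match describes letters, not binding. LDHA has another RefSeq start, and its 250 bases (chr11:18396101-18396350) hold no match.

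The genes ranked first in each direction went far beyond the 2-fold rule. In all, 165 protein-coding genes were at least 10-fold higher and 79 at least 10-fold lower, although more protein-coding genes were lower (1944) than higher (1443) at 2-fold. The 15 protein-coding genes ranked first each way were taken by the end of the interval closest to a ratio of 1. The calpain protease gene CAPN8 came first among the higher ones, with 0.580 CPM in normoxia, 9.901 in hypoxia alone and 209.8 with oxamate. It was 362-fold higher (219 to 647). AKAP12, which encodes a scaffold for protein kinase A, had 49.2 CPM in normoxia, 3068 in hypoxia alone and 5026 with oxamate. It was 102-fold higher (96.7 to 108), a gain of 4976 CPM. LOXL2, whose product crosslinks collagen, had 0.387, 32.2 and 129 CPM and was 335-fold higher (182 to 699).

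Several of the 15 higher genes were near the detection limit in normoxia, so the size of their fold is loosely known. The integrin gene ITGA10 had 2, 155 and 1335 fragments in the 3 libraries and was 690.1-fold higher (191 to 5704). RANBP3L, with 2, 32 and 1281 fragments, was 662-fold higher (183 to 5474). ADGRF4, an adhesion receptor gene on chromosome 6, had 0, 185 and 444 fragments. It was 153-fold higher with a floor of 3 fragments put for the 0, and its 95% interval began at 124. Its neighbour ADGRF2 had 5, 778 and 1232 fragments and was 255-fold higher (109 to 786). PTX3, which encodes a soluble pattern recognition protein, had 5, 49 and 802 fragments and was 166-fold higher (70.8 to 512). PRSS35 stood apart from the rest of this group: it had 12, 0 and 1228 fragments, so it was at 0 in hypoxia alone and 106-fold higher (60.3 to 205) with oxamate. The remaining members were NPPB, LSP1, DAAM2, PPFIA4, IGFBP1 and AKR1B1, of which DAAM2 shares 30.1% of its exon bases with another gene and is uncertain.

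Among the lower genes GPAM, which encodes the mitochondrial acyltransferase that opens glycerolipid synthesis, came first with 1474, 67 and 2 fragments. Only 2 fragments remained with oxamate, and the gene was 713-fold lower (197 to 5892). SLC2A2, the hepatocyte glucose transporter gene, had 152, 20 and 1 fragments and was 147-fold lower (25.99 to 5845). The paralogs ORM1 and ORM2, for orosomucoid, an acute phase plasma protein, had 109.7, 15.5 and 2.88 CPM and 68.7, 13.01 and 2.76 CPM and were 38.1-fold lower and 24.9-fold lower. Their sequences are nearly alike, so the division of fragments between them is uncertain. Other genes of liver metabolism in the 15 were SULT2A1 (sulfotransferase, 36.6-fold lower), CPS1 (first enzyme of the urea cycle, 43.1-fold lower), DDC (aromatic amino acid decarboxylase, 28.7-fold lower), SPTLC3 (serine palmitoyltransferase subunit, 36.5-fold lower) and APOH (plasma apolipoprotein, 17.95-fold lower). PRLR, the prolactin receptor gene, was 25.1-fold lower (18.3 to 35.3). CPS1 was the member of these 15 whose level in hypoxia alone was below that with oxamate, with 223, 2 and 5 fragments.

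**Figure D1:**
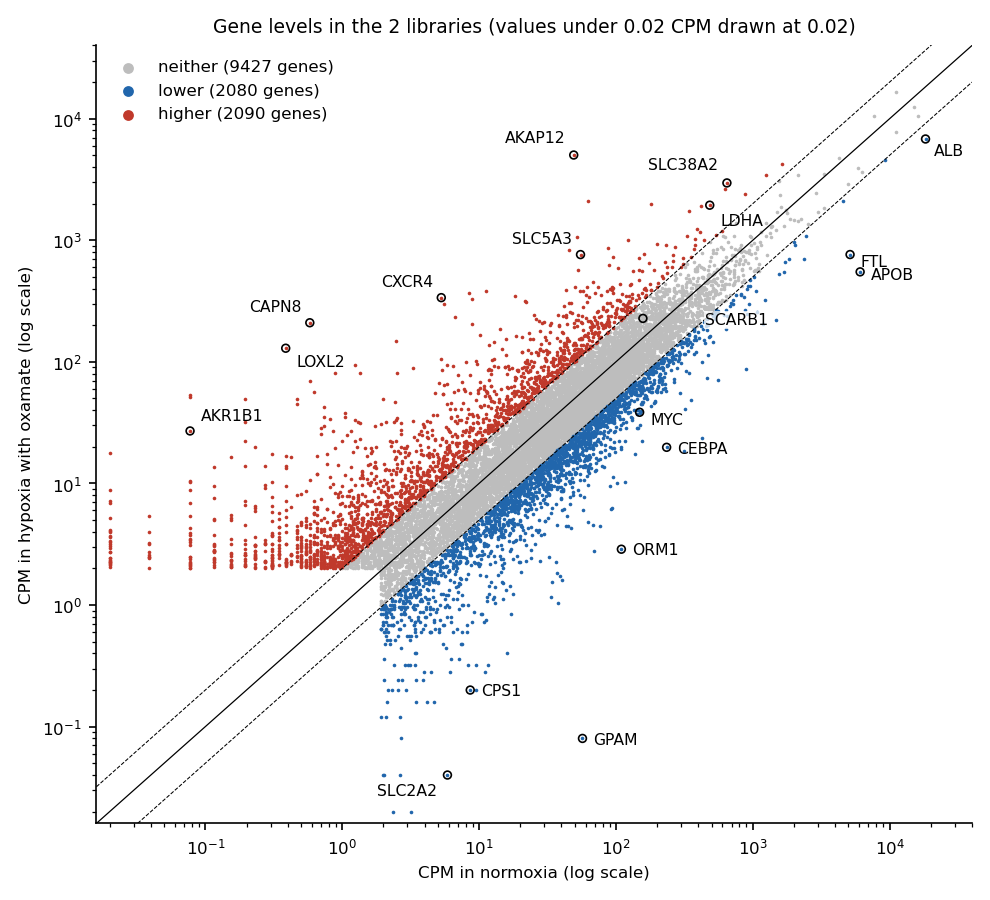
CPM in normoxia (horizontal axis, log scale) against CPM in hypoxia with oxamate (vertical axis, log scale) for the 13597 measured genes, 1 point per gene and 1 library per axis, with the line of equality solid and the 2-fold lines dashed. The 2090 higher genes (red) reach far above the line at low normoxia levels, as for AKR1B1, CAPN8 and LOXL2, while the 2080 lower genes (blue) include abundant liver transcripts such as ALB, APOB and FTL.

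**Figure D2:**
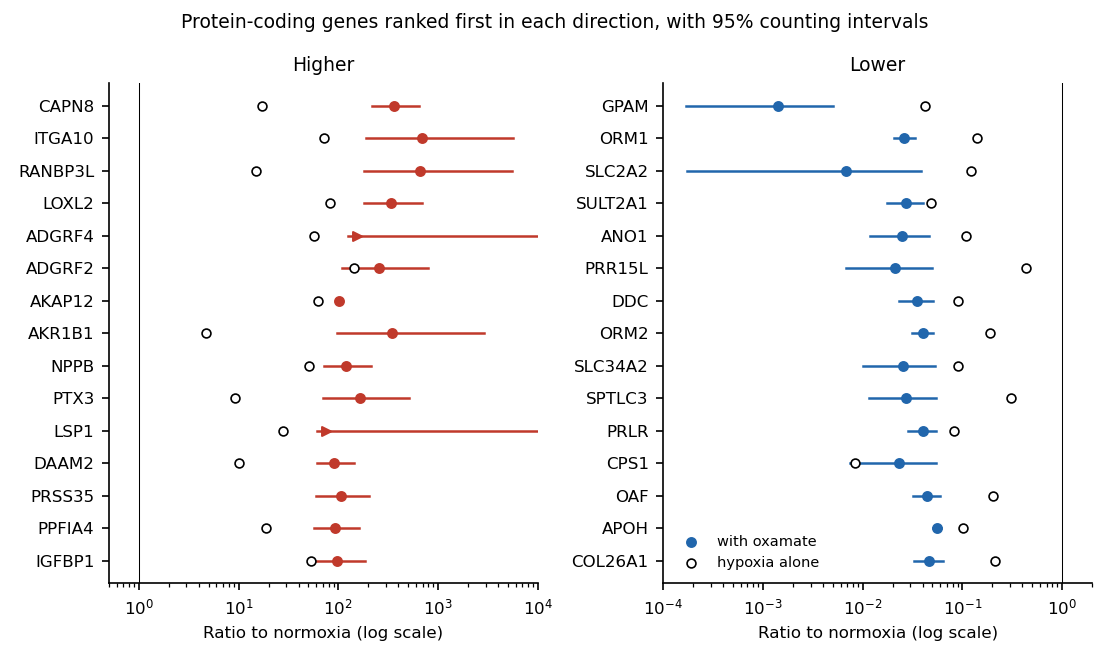
Ratio to normoxia (log scale) of the 15 protein-coding genes ranked first in each direction, with filled points and 95% counting intervals for hypoxia with oxamate and open points for hypoxia alone, each from 1 library. Triangles mark genes with 0 fragments in normoxia, drawn at the ratio to the floor put for the 0, not at an interval end. Their lines run to the edge. PRSS35 has no open point because it had 0 fragments in hypoxia alone.

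Of HIF feedback and oxygen sensing genes, 10 of 19 measured members were higher and 0 lower, with a median log2 ratio of 1.12. EGLN3, a prolyl hydroxylase that marks HIF for degradation and is itself a HIF target, had 7.73 CPM in normoxia, 44.99 in hypoxia alone and 59.8 with oxamate and was 7.74-fold higher (6.67 to 9.01). EGLN1, the main hydroxylase of this kind, was 3.58-fold higher (3.304 to 3.88). The genes of the factors themselves were not past the rule: HIF1A had 223, 193 and 305 CPM, EPAS1, which encodes the alpha subunit of HIF-2, 198, 279.9 and 319 CPM, and the partner subunit gene ARNT 65.2, 72.5 and 68.8 CPM. HIF3A, for another alpha subunit, was 7.04-fold higher (4.94 to 10.3) from a low level (36, 298 and 245 fragments). The histone demethylase gene KDM3A, with 77.4, 226 and 357 CPM, was 4.605-fold higher (4.39 to 4.84). ANKRD37, a small ankyrin repeat gene, was 11.8-fold higher (8.13 to 17.8), and another gene covers 35.2% of its exon bases.

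HIF targets of survival and mitophagy followed, where 12 of 16 measured members were higher and 1 lower, with a median log2 ratio of 2.41. The mitophagy receptor genes BNIP3 and BNIP3L had 47.6, 117 and 254 CPM and 18.2, 173 and 348 CPM, and were 5.34-fold higher and 19.1-fold higher. RORA, which encodes a nuclear receptor, had 2.47 CPM in normoxia, 36.8 in hypoxia alone and 147 with oxamate, was 59.4-fold higher (46.4 to 77.3), and was also 3.99-fold higher (3.73 to 4.29) with oxamate than in hypoxia alone. NDRG1, a hypoxia marker gene of many cell types, had 45.1, 692 and 839 CPM and was 18.6-fold higher (17.5 to 19.8). PPP1R3C, for a glycogen-targeting phosphatase subunit, was the lower member at 2.36-fold lower (1.79 to 3.16).

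Of HIF targets that form blood vessels or are secreted, 14 of 17 measured members were higher and 0 lower, with a median log2 ratio of 3.31. VEGFA, the main growth factor of blood vessels, had 104 CPM in normoxia, 341 in hypoxia alone and 595 with oxamate and was 5.71-fold higher (5.48 to 5.95). CXCR4, a chemokine receptor gene, had 5.297 CPM in normoxia, 55.3 in hypoxia alone and 337 with oxamate, so that the level with oxamate was 6.103-fold higher (5.78 to 6.45) than in hypoxia alone. ANGPTL2, a secreted angiopoietin-like factor, had 32, 2915 and 2346 fragments and was 75.8-fold higher (53.5 to 111). EPO, the erythropoietin gene, had 21, 180 and 93 fragments and was 4.58-fold higher (2.83 to 7.74), while TGFA, IGFBP3 and VEGFB were not past the rule. CA9, the carbonic anhydrase whose start region is shown above, had 6.69 CPM in normoxia, 185 in hypoxia alone and 233 with oxamate and was 34.8-fold higher (29.9 to 40.7), and 38.5% of its exon bases lie in another gene. Its family member CA12 was 2.96-fold lower (2.71 to 3.24). The other genes of pH and bicarbonate control showed no common direction (2 of 13 higher, 2 lower, median 0.03).

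Of glycolysis genes, 11 of 21 measured members were higher and 2 lower, with a median log2 ratio of 1.01. ENO2, the neuronal enolase gene, had 5.57 CPM in normoxia, 61.4 in hypoxia alone and 298 with oxamate and was 53.6-fold higher (45.4 to 63.6). In FPKM the common enolase gene ENO1 was still above it in each library (301, 381 and 583 FPKM against 1.31, 14.3 and 68.9 FPKM), and ENO1 itself was 1.97-fold higher (1.94 to 1.99), just under the rule and past it when scaled by total fragments (log2 1.07). PFKP, the platelet phosphofructokinase gene, had 7, 40 and 351 fragments and was 51.8-fold higher (24.9 to 129.9). In FPKM the liver form PFKL stayed far above PFKP, with 16.8, 27.9 and 22.96 FPKM against 0.0352, 0.186 and 1.796 FPKM. PGK1 (phosphoglycerate kinase) was 5.09-fold higher (4.98 to 5.21), PKM (pyruvate kinase of most tissues) 2.73-fold higher (2.69 to 2.77) and HK2 (hexokinase) 2.56-fold higher (2.49 to 2.64).

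Liver forms of the transporter and of pyruvate kinase were the lower members. PKLR, the liver pyruvate kinase gene, had 21.9 CPM in normoxia, 4.59 in hypoxia alone and 2.32 with oxamate and was 9.44-fold lower (7.195 to 12.6), and SLC2A2 had 1 fragment left with oxamate, as above. SLC2A1, the glucose transporter gene of most dividing cells, had 23.1 CPM in normoxia, 66.8 in hypoxia alone and 173 with oxamate and was 7.497-fold higher (6.88 to 8.18). In FPKM, SLC2A1 and SLC2A2 stood at 3.51, 10.1 and 25.9 FPKM and 1.73, 0.211 and 0.0116 FPKM. PFKFB4, whose product makes an activator of phosphofructokinase, had 14.3, 76.3 and 188 CPM and was 13.1-fold higher (11.8 to 14.6). In glycogen metabolism the branching enzyme gene GBE1 was 9.704-fold higher (8.95 to 10.5) and PGM1 (phosphoglucomutase) 5.77-fold higher (5.19 to 6.43), while FBP1, of gluconeogenesis, was 4.89-fold lower (2.89 to 8.78). The list of glycogen and gluconeogenesis genes had 3 of 13 higher, 3 lower, median 0.25.

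**Figure D3:**
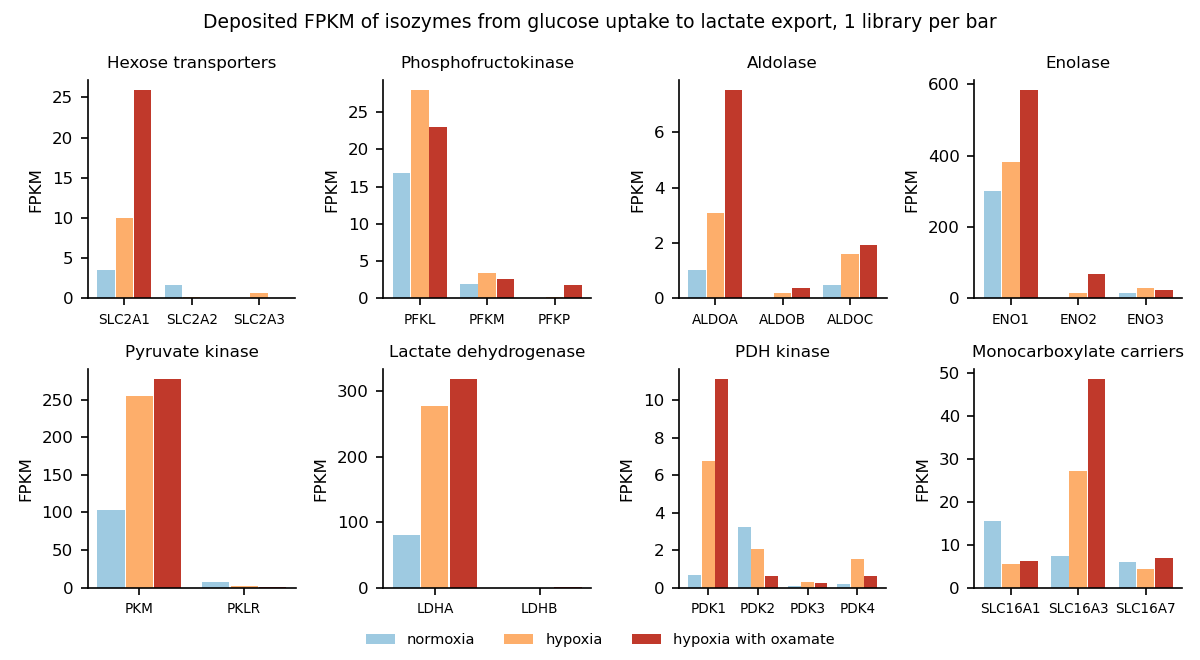
Deposited FPKM (vertical axes, linear from 0) of isozymes from glucose uptake to lactate export in normoxia (blue), hypoxia alone (orange) and hypoxia with oxamate (red), 1 library per bar. SLC2A1, ENO1, PKM, LDHA, PDK1 and SLC16A3 are highest with oxamate, while SLC2A2, PKLR, PDK2 and SLC16A1 are highest in normoxia.

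LDHA, which encodes the M subunit of the enzyme that oxamate inhibits, was higher with the inhibitor present. It had 485 CPM in normoxia, 1687 in hypoxia alone and 1944 with oxamate and was 4.01-fold higher (3.93 to 4.09), and with oxamate it was 1.15-fold higher (1.14 to 1.17) than in hypoxia alone. LDHB, for the H subunit, had 0, 0 and 7 fragments, too few for a fold, and 33.4% of its exon bases lie in another gene. LDHC and LDHD had 0, 3 and 5 fragments and 3, 2 and 11 fragments. The lactate exporter gene SLC16A3 (monocarboxylate carrier 4) had 67.5 CPM in normoxia, 252 in hypoxia alone and 454 with oxamate and was 6.73-fold higher (6.395 to 7.08), and SLC16A1, for the carrier that also brings lactate in, was 2.44-fold lower (2.27 to 2.63).

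Genes that send pyruvate into mitochondria were lower where they were past the rule, while PDK1, PDK3 and PDK4, kinases that block that step, were higher. PDK1, a kinase that switches off pyruvate dehydrogenase, had 10.1 CPM in normoxia, 101 in hypoxia alone and 167 with oxamate and was 16.5-fold higher (14.6 to 18.8), whereas PDK2 was 5.38-fold lower (4.24 to 6.89) and shares 38.6% of exon bases. PDHA1, for the catalytic subunit, was 2.59-fold lower (2.38 to 2.83), the carrier genes MPC1 and MPC2 were 2.76-fold lower and 3.42-fold lower, and malic enzyme 2 (ME2) was 5.05-fold lower (4.39 to 5.83). Exons of PDHA1 and MPC2 are shared with other genes in 21.3% and 22.5% of bases. Of the whole lactate and pyruvate list, 4 of 19 measured members were higher and 6 lower, with a median log2 ratio of -0.67. That median turned to 0.85 when genes that share exon bases were left out.

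Most mitochondrial energy genes were not past the rule, and most of those past it were lower. In the tricarboxylic acid cycle and glutamine entry, 1 of 24 measured members were higher and 9 lower, with a median log2 ratio of -0.75. GLUD1 (glutamate dehydrogenase) had 422 CPM in normoxia, 216 in hypoxia alone and 100.1 with oxamate and was 4.22-fold lower (4.04 to 4.41), and IDH1 (cytosolic isocitrate dehydrogenase) was 3.12-fold lower (3.005 to 3.24). Of nuclear genes of oxidative phosphorylation, 1 of 34 measured members were higher and 7 lower, with a median log2 ratio of -0.68, a share of lower members near that of all protein-coding genes. Scaled by total fragments, 5 of the 34 were lower. Every measured subunit of ATP synthase on the list but ATP5MC3 and ATP5PO was past the rule, with ATP5MC1, for the rotor ring, at 6.78-fold lower (5.84 to 7.89). Scaled by total fragments, not all of these subunits passed the rule. Without genes that share exons, 4 of 16 members of the whole list were lower. The higher member of that list, NDUFV2, had 20, 92 and 92 fragments and shares 28.4% of its exon bases. Of the genes on the mitochondrial chromosome, MT-CO3 and MT-ND2 passed the rule (2.03-fold lower and 2.15-fold lower) and the median of the 13 was -0.53. MT-CO3 fell short of it when scaled by total fragments (log2 -0.93).

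SCARB1, the receptor of high-density lipoprotein that the series title names, had 158 CPM in normoxia, 394 in hypoxia alone and 228 with oxamate. It was 1.45-fold higher (1.39 to 1.51) against normoxia, below the 2-fold rule, and below hypoxia alone. VLDLR, a receptor of very-low-density lipoprotein, had 11.8 CPM in normoxia, 26.4 in hypoxia alone and 52.1 with oxamate and was 4.41-fold higher (3.89 to 5.01). PDZK1, a scaffold of the SCARB1 receptor, had 132 CPM in normoxia, 123 in hypoxia alone and 62.4 with oxamate and was 2.12-fold lower (1.998 to 2.25). PDZK1 fell short of the rule when scaled by total fragments (log2 -0.99) or with the length trend removed (log2 -0.88). The uptake list as a whole had 2 of 15 higher, 4 lower, median -0.40.

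In cholesterol synthesis, 0 of 24 measured members were higher and 6 lower, with a median log2 ratio of -0.70. For hypoxia alone against normoxia the median of these members was -1.35, and the list summed to 6791, 2970 and 3907 CPM. Without genes that share exons, 0 of 11 measured members were higher and 1 lower with oxamate against normoxia, with a median log2 ratio of -0.65. HMGCS1, a synthase early in the pathway, had 640.02 CPM in normoxia, 149 in hypoxia alone and 188 with oxamate and was 3.41-fold lower (3.296 to 3.52). TM7SF2, a sterol reductase of a later step, had 140.1 CPM in normoxia, 52.7 in hypoxia alone and 40.1 with oxamate and was 3.498-fold lower (3.26 to 3.76). INSIG1, a sterol-regulated brake of the pathway, had 79.9, 29.8 and 85.7 CPM, and SC5D 149, 87.01 and 189 CPM, so both were lower in hypoxia alone than in normoxia, and not so with oxamate. Among efflux and esterification genes (2 of 10 higher, 2 lower, median -0.07) SOAT1, which esterifies cholesterol, was 2.53-fold lower (2.38 to 2.68), and ABCA1, the exporter to apolipoprotein A1, stood at 1.79-fold higher, short of the rule.

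Fat synthesis genes past the rule were mostly lower, and lipid droplet genes past it were higher. Of fatty acid and triglyceride synthesis genes, 1 of 19 measured members were higher and 6 lower, with a median log2 ratio of -0.53. FASN, the fatty acid synthase, had 1694 CPM in normoxia, 578 in hypoxia alone and 545 with oxamate and was 3.11-fold lower (3.05 to 3.17). MLXIPL, which encodes the glucose-responsive factor ChREBP, was 4.96-fold lower (4.498 to 5.48), ACACB (acetyl-CoA carboxylase 2) 10.5-fold lower (7.09 to 16.3), while SCD stood at 1.17-fold lower. LPIN2, a phosphatidate phosphatase gene, was the higher member at 2.48-fold higher (2.38 to 2.57). Of the lipid droplet genes, 6 of 12 measured members were higher and 0 lower, with a median log2 ratio of 0.76. PLIN2, the main droplet coat protein of liver cells, had 412 CPM in normoxia, 1598 in hypoxia alone and 1160.3 with oxamate and was 2.81-fold higher (2.75 to 2.88), and HILPDA, an inhibitor of droplet lipolysis and a known HIF target, was 7.37-fold higher (6.53 to 8.35). In fatty acid oxidation and ketone body synthesis (1 of 20 higher, 5 lower, median -0.49) the coactivator gene PPARGC1B was 21.97-fold lower (10.4 to 55.5) and PPARA 2.49-fold higher (2.29 to 2.71).

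Most secreted liver protein genes past the rule were lower. ALB, the albumin gene, had 18298 CPM in normoxia, 8887 in hypoxia alone and 6809 with oxamate and was 2.69-fold lower (2.67 to 2.702). Its level fell by 11489 CPM. APOB, the structural protein of low-density lipoprotein, had 6089.98 CPM in normoxia, 2212 in hypoxia alone and 549.9 with oxamate and was 11.1-fold lower (10.9 to 11.3), and APOA1, that of high-density lipoprotein, had 354, 110.3 and 48.9 CPM and was 7.23-fold lower (6.81 to 7.68). Of apolipoprotein and assembly genes, 0 of 12 measured members were higher and 7 lower, with a median log2 ratio of -1.20. Of plasma proteins, 1 of 16 measured members were higher and 9 lower, with a median log2 ratio of -1.49, and the 27 listed genes summed to 30909 CPM in normoxia, 23798 in hypoxia alone and 14734 with oxamate. CP, the ceruloplasmin gene, was the higher member. It had 52.3 CPM in normoxia, 1004 in hypoxia alone and 1069 with oxamate and was 20.4-fold higher (19.4 to 21.6). TF, the transferrin gene, had 1494 CPM in normoxia, 5054 in hypoxia alone and 1706 with oxamate, so it was 2.96-fold lower (2.93 to 2.995) with oxamate than in hypoxia alone and 1.14-fold higher (1.13 to 1.16) against normoxia.

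Clotting and complement genes past the rule were mostly lower. Of coagulation and fibrinolysis genes, 1 of 18 measured members were higher and 12 lower, with a median log2 ratio of -1.70. The fibrinogen genes FGA, FGB and FGG had 88.97, 54.9 and 17.3 CPM, 75.98, 21.8 and 4.44 CPM and 7.39, 1.73 and 0.4797 CPM, and FGB was 17.1-fold lower (14.1 to 20.9). TFPI, an inhibitor of clotting, was the higher member at 3.02-fold higher (2.85 to 3.19). Of complement genes, 2 of 15 measured members were higher and 9 lower, with a median log2 ratio of -1.52. C3, the central component, was 3.39-fold lower (3.33 to 3.44), and C5 was 10.2-fold lower (8.94 to 11.6). MASP1, a protease of the lectin pathway, had 88.04 CPM in normoxia, 202 in hypoxia alone and 865 with oxamate and was 9.83-fold higher (9.41 to 10.3), and SERPING1, the C1 inhibitor gene, was 15.4-fold higher (10.2 to 24.4).

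Hepatocyte transcription factors were lower or not past the rule (0 of 21 higher, 7 lower, median -0.50). CEBPA, a factor of hepatocyte differentiation, had 235 CPM in normoxia, 108 in hypoxia alone and 19.8 with oxamate and was 11.8-fold lower (10.8 to 13.004), and 43.4% of its exon bases lie in another annotated gene. HNF4A, a central factor of hepatocyte identity, stood at 1.62-fold lower, and FOXA1, which opens chromatin for liver genes, was 3.196-fold lower (2.97 to 3.44). Urea cycle and amino acid breakdown genes had 2 of 15 higher, 10 lower, median -1.49. ASS1 (argininosuccinate synthase) had 138 CPM in normoxia, 17.9 in hypoxia alone and 17.6 with oxamate and was 7.87-fold lower (7.13 to 8.71), and FAH, of tyrosine breakdown, was 7.61-fold lower (6.55 to 8.89). Among drug and bile acid genes (2 of 13 higher, 7 lower, median -1.26) CYP1A1 was 3.46-fold higher (2.897 to 4.14) and CYP2B6 2.68-fold higher (2.46 to 2.93), against the estrogen sulfotransferase gene SULT1E1 at 29.3-fold lower (11.1 to 109), which shares 24.1% of its exon bases. Without genes that share exons the median of the drug and bile acid list was -0.52, with 2 of 9 higher and 4 lower. Fetal liver genes had 1 of 16 higher, 4 lower, median -0.18, with AFP 2.93-fold lower (2.87 to 2.99) and GPC3 3.16-fold lower (3.08 to 3.24).

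Of genes that let cells take up or make organic osmolytes and genes of sodium transport, 9 of 19 measured members were higher and 1 lower, with a median log2 ratio of 0.98. Without genes that share exons, 3 of 9 were higher. Such genes are known to respond to raised salt outside the cell through the factor NFAT5. AKR1B1, aldose reductase, which makes sorbitol, had 0.0773 CPM in normoxia, 0.361 in hypoxia alone and 27.02 with oxamate, was 349-fold higher (96.4 to 2891), and was also 74.8-fold higher (40.4 to 157) with oxamate than in hypoxia alone. SLC5A3, the importer of myo-inositol, had 55.1 CPM in normoxia, 94.3 in hypoxia alone and 763 with oxamate and was 13.8-fold higher (13.1 to 14.6). SLC6A12, the importer of betaine, had 21.8 CPM in normoxia, 26.7 in hypoxia alone and 319 with oxamate and was 14.6-fold higher (13.4 to 15.9). For both, the level in hypoxia alone was much nearer to normoxia than to oxamate. SLC38A2, a sodium-coupled importer of neutral amino acids, had 647 CPM in normoxia, 1525 in hypoxia alone and 2963 with oxamate and was 4.58-fold higher (4.50 to 4.65). ATP1B1, the beta subunit of the sodium pump, had 416, 926 and 1925 CPM and was 4.63-fold higher (4.53 to 4.73). NFAT5 itself was 2.57-fold higher (2.44 to 2.702), about the level of hypoxia alone. SORD, which turns sorbitol into fructose, was 13.1-fold lower (10.9 to 15.9) in the opposite direction, and its pseudogene SORD2P, with 718, 148 and 58 fragments, could share its fragments, and it was named after its values were seen. SGK1, a kinase gene of sodium transport, was the lower list member at 3.34-fold lower (2.87 to 3.89). The sodium that the oxamate salt adds was not measured here, and its part in these differences was not tested.

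**Figure D4:**
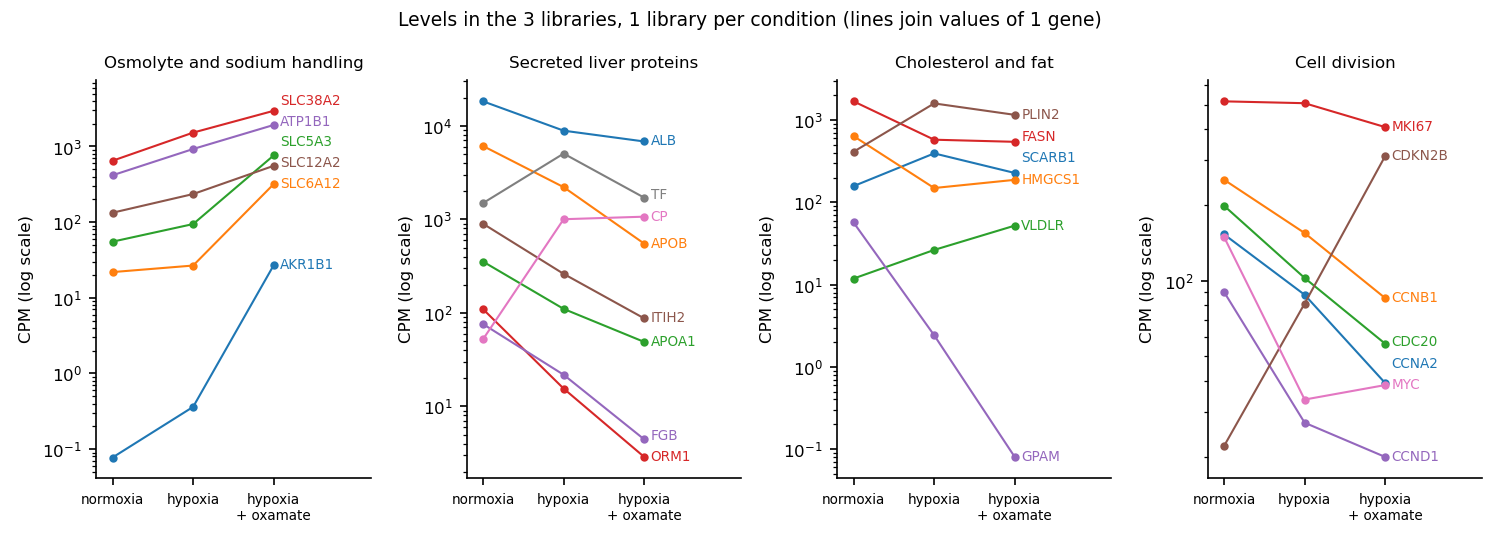
CPM (log scale) of named genes in normoxia, hypoxia alone and hypoxia with oxamate, 1 library per condition, in panels for osmolyte and sodium handling, secreted liver proteins, cholesterol and fat, and cell division. The steps of AKR1B1, SLC5A3 and SLC6A12 lie mainly between hypoxia alone and oxamate, ALB, APOB, APOA1, ITIH2, FGB and ORM1 are lower at each step, and SCARB1, PLIN2 and TF are highest in hypoxia alone.

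Amino acid stress genes were mixed. ATF4 is a factor that is made when amino acids run short and turns on their synthesis and uptake, and of its targets 4 of 21 measured members were higher and 5 lower, with a median log2 ratio of -0.66. GDF15, a secreted stress hormone, had 123 CPM in normoxia, 549 in hypoxia alone and 1010.4 with oxamate and was 8.197-fold higher (7.90 to 8.51). ATF4 itself had 431, 274 and 488 CPM and was not past the rule. The serine synthesis genes PHGDH and PSAT1 were 3.07-fold lower and 2.55-fold lower. Among amino acid transporters (3 of 16 higher, 5 lower, median -0.20) SLC7A11, the cystine importer, was 2.56-fold higher (2.38 to 2.76) and SLC7A5, which imports leucine, 2.42-fold lower (2.31 to 2.52). Of the aminoacyl-tRNA synthetase genes, 0 of 20 measured members were higher and 7 lower, with a median log2 ratio of -0.91, with FARSB 4.97-fold lower (4.41 to 5.63).

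Folding genes past the rule were lower in the cytosol and mitochondria and went both ways in the endoplasmic reticulum. Heat shock and chaperonin genes had 0 of 18 higher, 7 lower, median -0.92, led by the mitochondrial chaperone gene HSPD1, with 1229 CPM in normoxia, 440.3 in hypoxia alone and 324 with oxamate and 3.79-fold lower (3.701 to 3.89). In the endoplasmic reticulum (3 of 22 higher, 6 lower, median -0.44) the chaperone genes HSPA5 and PDIA4 were 2.03-fold lower and 2.73-fold lower, whereas ERN1, the sensor IRE1, was 3.77-fold higher (3.45 to 4.12) and EDEM1, of protein disposal, 3.07-fold higher (2.92 to 3.23). HSPA5 dropped out of the rule when scaled by total fragments (log2 -0.93).

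Antioxidant genes past the rule were mostly lower (2 of 22 higher, 9 lower, median -0.69). NQO1, a quinone reductase, had 109 CPM in normoxia, 31.004 in hypoxia alone and 19.8 with oxamate and was 5.52-fold lower (5.02 to 6.09). The aldo-keto reductase gene AKR1B10 was higher at 5.06-fold higher (3.68 to 7.08). In iron handling (2 of 16 higher, 8 lower, median -0.82) the ferritin light chain gene FTL had 5141 CPM in normoxia, 1175 in hypoxia alone and 763 with oxamate and was 6.74-fold lower (6.63 to 6.84), while TFRC, the transferrin receptor, was 2.403-fold higher (2.35 to 2.46). BMP6, which raises hepcidin in liver, was 8.64-fold higher (6.33 to 12.05), and its coreceptor gene HJV 12.4-fold lower (7.68 to 21.3). Among metallothionein and zinc transporter genes (1 of 8 higher, 1 lower, median 0.10) MT2A, which binds zinc and copper, was 3.97-fold higher (3.41 to 4.65).

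Ribosome biogenesis and division genes past the rule were lower, apart from MXD1. Of ribosome biogenesis genes and MYC targets, 1 of 25 measured members were higher and 18 lower, with a median log2 ratio of -1.30. MYC had 149 CPM in normoxia, 33.7 in hypoxia alone and 38.5 with oxamate and was 3.87-fold lower (3.61 to 4.16), NCL (nucleolin) was 3.25-fold lower (3.16 to 3.34), and MXD1, an antagonist of MYC, was the higher member at 5.299-fold higher (4.92 to 5.71). Cytosolic ribosomal proteins stayed within the 2-fold rule in all 28 genes (median -0.09, and 0.01 when scaled by total fragments). Of DNA replication genes, 0 of 26 measured members were higher and 16 lower, with a median log2 ratio of -1.06, with GINS2 4.15-fold lower (3.596 to 4.81). Scaled by total fragments, 12 of the 26 were lower. Of mitosis genes, 0 of 25 measured members were higher and 15 lower, with a median log2 ratio of -1.21. CCNA2, cyclin A2, had 153 CPM in normoxia, 87.8 in hypoxia alone and 39.2 with oxamate and was 3.897-fold lower (3.63 to 4.18), and MKI67, the proliferation marker, stood at 1.27-fold lower.

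Cell cycle control in G1 had both directions (6 of 17 higher, 5 lower, median -0.17). The inhibitor gene CDKN2B had 22.04 CPM in normoxia, 81.1 in hypoxia alone and 313 with oxamate and was 14.2-fold higher (13.03 to 15.5), and CDKN1A was 3.87-fold higher (3.13 to 4.81). Hep3B is known to lack functional p53. CCND1, cyclin D1, had 90.2 CPM in normoxia, 27.3 in hypoxia alone and 19.9 with oxamate and was 4.52-fold lower (4.102 to 4.99). Among regulators of mTOR, a kinase of growth, DEPTOR was 6.16-fold higher (5.23 to 7.28) and SESN3 4.84-fold lower (4.39 to 5.34), in a list with 4 of 19 higher, 2 lower, median 0.17. Among apoptosis regulators (2 of 17 higher, 1 lower, median 0.28) BIRC3 was 4.78-fold higher (4.21 to 5.45) and BIK 3.56-fold lower (2.12 to 6.27).

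Immediate early genes respond fast to signals. Of immediate early genes, 11 of 17 measured members were higher and 0 lower, with a median log2 ratio of 1.49. FOSL2 had 6.998 CPM in normoxia, 27.8 in hypoxia alone and 78.03 with oxamate and was 11.1-fold higher (9.57 to 13.1), and DUSP1, a phosphatase that ends kinase signals, was 5.25-fold higher (4.86 to 5.68). FOS, the founding member, had 9.898, 57.4 and 35.2 CPM and was 3.55-fold higher (3.09 to 4.101). In the NF-kB list (4 of 16 higher, 2 lower, median 0.52) the chemokine genes CXCL8 and CCL20 were 6.54-fold higher and 3.37-fold higher, and CXCL5 was 3.39-fold lower (3.16 to 3.63). The list of growth factor receptors, which also holds some ligand, binding protein and adaptor genes, went both ways (4 of 22 higher, 7 lower, median -0.06). EGFR had 330.01 CPM in normoxia, 621 in hypoxia alone and 1086 with oxamate and was 3.29-fold higher (3.21 to 3.37). The insulin receptor gene INSR was 3.87-fold higher (3.702 to 4.05). FGFR2 was 3.81-fold lower (3.54 to 4.11) and the growth hormone receptor gene GHR 12.5-fold lower (7.399 to 22.8).

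Matrix genes and their enzymes went both ways (9 of 21 higher, 4 lower, median 0.47). PLOD2, which hydroxylates collagen lysines, had 182 CPM in normoxia, 1382 in hypoxia alone and 1990.3 with oxamate and was 10.9-fold higher (10.6 to 11.3), COL7A1, a basement membrane collagen, was 13.4-fold higher (10.3 to 17.6) and P4HA1, the collagen prolyl hydroxylase, 5.56-fold higher (5.23 to 5.92). FN1, fibronectin, had 1647, 3819.5 and 4221 CPM and was 2.56-fold higher (2.53 to 2.59). COL5A2 and TIMP3, an inhibitor of metalloproteinases, were 3.19-fold lower and 4.09-fold lower. The epithelial-mesenchymal list showed no common direction (6 of 20 higher, 2 lower, median 0.12). Its repressor genes SNAI2 and ZEB1 were 9.24-fold higher and 4.14-fold higher. CCN1, a matricellular protein, was 6.92-fold higher (6.49 to 7.38), and CDH1, E-cadherin, stood at 1.21-fold lower. The 2 lower members are not named here, and the lowest log2 ratio in the list was -2.17.

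Genes of histone acetylation and lactylation, which the series title concerns, were mostly within the rule (2 of 23 higher, 2 lower, median -0.18). Besides writers and erasers, that list holds the metabolic enzyme genes ACLY, ACSS2 and SUCLG2. EP300, an acyltransferase reported to write lactylation, had 190.4, 224 and 276 CPM and stood at 1.45-fold higher. KAT2B had 23.04, 38.7 and 95.3 CPM and was 4.14-fold higher (3.78 to 4.53), and HDAC9 was 2.91-fold higher (2.71 to 3.12), while KAT2A was 2.24-fold lower (2.099 to 2.39). Counts were also taken for the circadian clock (0 of 14 higher, 2 lower, median 0.31), autophagy and lysosome (1 of 20 higher, 0 lower, median -0.04), the interferon response (4 of 18 higher, 1 lower, median -0.06) and the p53 pathway (3 of 15 higher, 0 lower, median 0.15). Wnt targets had 1 of 10 higher, 3 lower, median -0.70, with DKK1 2.78-fold lower (2.72 to 2.85).

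**Figure D5:**
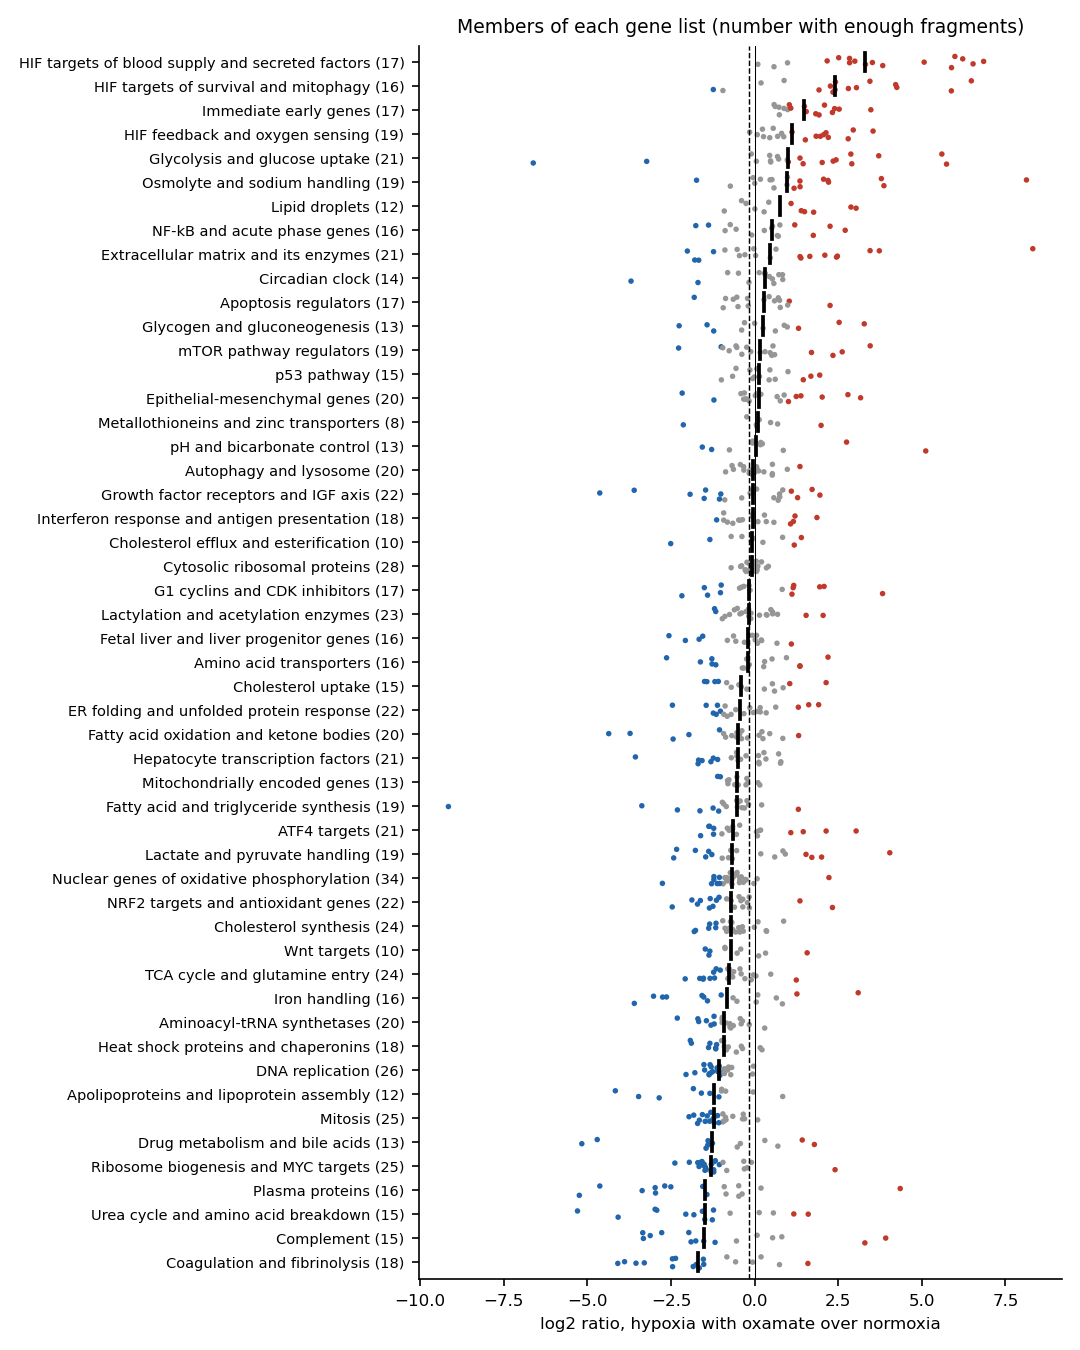
Log2 ratio of hypoxia with oxamate over normoxia for each measured member of the lists with at least 8 measured members (red higher, blue lower, grey neither). The lists of cell type and line markers are left out. Black bars give the list medians, and the dashed line gives the median of all measured protein-coding genes at -0.18. HIF targets lie at the top and coagulation, complement and urea cycle genes at the bottom, and several lists hold members far out in both directions.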

How the data were processed

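RNA of 3 Hep3B libraries was sequenced, 1 per condition. The deposited table gives FPKM per gene, with no further header text, and the unit was read from the values. Per the submitters' processing notes the authors used HISAT2 2.0.5, StringTie 1.3.3b, featureCounts 1.5.0-p3 and edgeR 3.22.5 with hg38, with no role or order given. The deposited FPKM times gene length came out as whole multiples of 1 constant per library within 0.01, which gave back whole fragments per gene. CPM were computed from these with TMM normalisation over the 3 libraries (30% of log ratios and 5% of mean levels trimmed). The constants put the totals behind the deposited FPKM at 0.938, 1.057 and 1.019 times the fragments, in the usual order of libraries. The TMM factors were 0.943, 1.052 and 1.008, so the deposited FPKM carry nearly the same scaling as the CPM. Log2 ratios used a prior count of 0.5. Intervals are exact and cover counting error only. Against 0 fragments, a fold is the ratio to a floor of 3 fragments, and the interval has a lower end only. Gene types and exon overlaps came from GENCODE 29, which matched 58356 of 61533 genes. Start regions came from RefSeq.

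With 1 library per condition no test was run. Some list members that the naming rule takes are not reported here, and list counts include them. Named genes were the 15 protein-coding genes per direction whose interval ended farthest from a ratio of 1 on its near side, given 100 fragments or more in either library, SCARB1 and the lactate dehydrogenase genes, up to 4 members at each end of 56 gene lists, and defining members of those lists. Members and lists were chosen with earlier results of these data known. Alternatives were other scalings, fragment minimums, gene sets, FPKM with 0.1 added, a prior count of 5, and removal of length and GC trends. On data simulated for this comparison with counting error alone, 50 of 50 genes raised 3-fold and 50 of 50 lowered 3-fold were called. So were 2 of 12397 unchanged genes and 0 of 50 genes raised 1.5-fold. The changed genes were drawn from protein-coding genes with at least 100 fragments in normoxia, so recovery near 50 fragments was not tested. Differences between cultures were not simulated, so false calls that come from them cannot be counted this way. Python 3.11.15, numpy 2.4.6, scipy 1.17.1 and pandas 2.3.3 were used.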

Additional observations from a re-analysis of the deposited data

How the results depend on the processing

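The number of genes called moved most with the fragment minimum, because it sets which genes can be called. With a minimum of 10 fragments 4350 genes were higher and 2911 lower, and with 200 fragments 1224 were higher and 1681 lower. Without genes that share exon bases with another gene, which leaves 6980 genes, 1131 were higher and 1130 lower. The scalings by total fragments, by median-of-ratios size factors and by the trimmed mean over the 2 libraries gave 2050 to 2320 higher and 1781 to 2151 lower genes. Of 56 list medians 11 changed sign under some setting, and 3 of these lay at least 0.25 from 0: the lactate and pyruvate list (0.85) and the apoptosis regulators (-0.75) without genes that share exons, and the stellate cell markers (0.25) with a minimum of 10 fragments. These 3 settings test other sets of genes. The other 8 lay nearer to 0, in the lists of pH control, cholesterol efflux, cytosolic ribosomal proteins, mTOR regulators, autophagy, interferon response, lactylation enzymes and growth factor receptors, and their medians after the change ran from -0.31 to 0.25. Without genes that share exons the medians were -1.83 for the apolipoproteins and 1.63 for the lipid droplet list, and with a minimum of 10 fragments the plasma protein median was -0.88. Of 973 genes named or listed, 926 to 966 kept their call under each of 5 settings, and no called gene changed sign. No paired analysis was possible because each condition has 1 library, and for the same reason no library could be left out. Depth limits genes near 50 fragments and, for genes with a few fragments in 1 library, the size of the fold.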

Other observations

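Transcripts other than protein-coding ones were more often higher than lower. Of 1734 such measured genes, 647 were higher and 136 lower, among them 186 higher and 35 lower antisense genes and 148 higher and 32 lower intergenic ones. The labels do not say whether strand was kept in counting, so reads of an antisense gene and its partner cannot be told apart. UCA1, MKLN1-AS and SNHG4 were taken from the ends of the ranking of matched genes of other types, and so chosen after their values were seen. UCA1 had 85, 359 and 2226 fragments and was 27.1-fold higher (21.8 to 34.03). MKLN1-AS had 151, 607 and 2376 fragments and was 16.3-fold higher (13.8 to 19.3). SNHG4, a host gene of small nucleolar RNAs, had 616, 140 and 71 fragments and was 8.39-fold lower (6.56 to 10.9). MIR210HG, the host transcript of a HIF-driven microRNA, was 11.03-fold higher (8.03 to 15.5). The abundant nuclear RNAs MALAT1 and NEAT1, likewise named afterwards, had 102, 159 and 324 CPM and 198, 298 and 414 CPM. In all, 27 genes had 0 fragments in normoxia and at least 50 with oxamate, 12 of them protein-coding, and 2 had the reverse.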
